A study of Sus scrofa with 22 samples.

Results

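The NK and cytotoxic effector genes described are GNLY, GZMH, FASLG, KLRK1, FCGR3A and TYROBP, and every probe set that the array annotation gives to exactly 1 of these 6 symbols was taken. The choice gave 7 probe sets out of 24123 on the array, and the 6 genes are among 6765 with a probe set of their own symbol. FCGR3A has 2 probe sets, Ssc_167_2_S1_a_at and Ssc_167_4_S1_at with each point of the IDs printed as _, which are told apart below by their endings _a_at and _at. All 7 passed the filter on low values, a log2 intensity above 5 in at least 2 arrays, together with 17240 probe sets in all. The probe sets for GNLY, GZMH, KLRK1, FCGR3A and TYROBP were above that level in 22 of 22 arrays and the FASLG probe set in 21.

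Natural killer cells and cytotoxic T cells kill target cells by releasing granules, which carry the pore-forming protein perforin, the membrane-lytic peptide granulysin and serine proteases called granzymes, or by showing Fas ligand to the Fas receptor of the target. They are switched on through receptors such as KLRK1 (NKG2D), which sees stress-induced ligands, and FCGR3A (CD16), which binds antibody-coated cells. These receptors signal through small membrane adaptors, among them HCST (DAP10), TYROBP (DAP12) and FCER1G. In blood TYROBP, FCER1G and FCGR3A are not restricted to lymphocytes, since monocytes use them too.

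The RNA came from blood mononuclear cells (lymphocytes and monocytes) of Mini Pigs, and the 22 blood samples were each read on 1 Affymetrix array. Pigs given the high-fat chow (20% beef tallow) with resveratrol, a plant polyphenol given daily at 8 mg for each kg of body weight, were sampled at 9 months, as were pigs on the high-fat chow alone and control pigs on normal chow (5% beef tallow), with 2 females and 2 males in each diet group. At the start of the trial, called time 0, 5 female and 5 male control animals were sampled. The labels give no ages and name no mutant allele or other agent in any group. The arrays came from separate pigs except for female 8 and male 25, which were measured at both times.

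A few properties of the arrays bear on what follows. The probe sets for the poly-A spike-in controls, RNAs added to each preparation, averaged 8.39 to 10.6 on the log2 scale in the 12 arrays at 9 months and 7.58 to 9.15 in the 10 at time 0, so the spike-in level differed between the times. At 9 months it fell into a higher set of 5 arrays, from 9.93, and a lower set of 7, up to 9.02. The higher set held 1 of 4 resveratrol arrays, 3 of 4 arrays of the high-fat diet alone and 1 of 4 control arrays, so it was spread unevenly over the diets. The difference between the 3' and 5' probe sets of actin, a sign of RNA breakdown, averaged 1.42 on the log2 scale at time 0 (0.794 to 2.45). At 9 months it averaged 1.95 on the control diet (1.05 to 2.52), 2.36 on the high-fat diet (1.92 to 3.09) and 1.86 with resveratrol (1.29 to 2.72). Its part in the differences between diets and times was not tested. Of the 12 listed markers of NK and cytotoxic cells, 7 had a probe set with that single symbol, namely the 6 genes described here and PRF1 (perforin). Their lowest log2 value on any array was 4.91, for FASLG. T cell markers such as CD3E (11.2 to 12.3 on the log2 scale across arrays) and monocyte markers such as CD14 (7.83 to 9.90) were measured as well. In such bulk samples fewer cells of a type and less RNA per cell cannot be told apart.

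**Figure D1:**
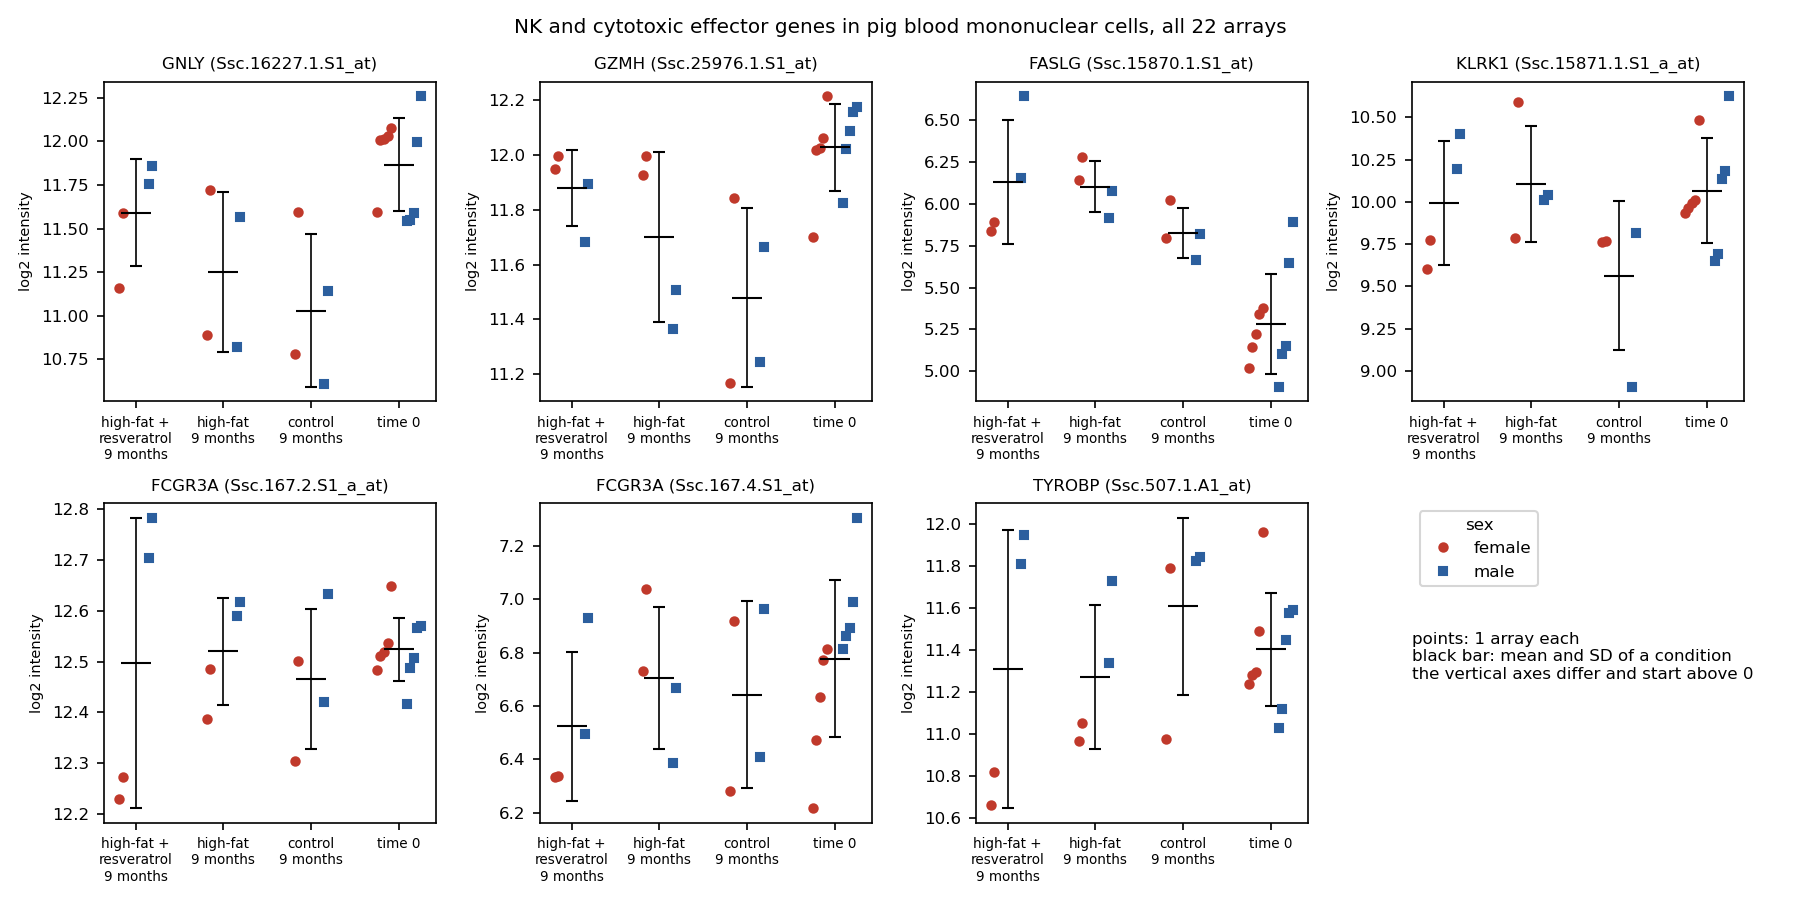
Log2 intensity of each of the 7 probe sets on every array, by condition, with females as red circles, males as blue squares and the mean and SD of each condition in black. GNLY and GZMH lie lowest on the control diet at 9 months (means 11.03 and 11.48) and highest at time 0 (11.87 and 12.03), FASLG is lowest at time 0 (5.28), and TYROBP separates by sex most widely in the resveratrol group.

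The control diet at 9 months was first set against time 0, which asks what changed in unchallenged pigs over the trial. Transcripts of both granule effectors, GNLY and GZMH, fell, and the transcript of the death ligand FASLG rose. Of the 7 probe sets 3 passed an adjusted p of 0.05, against 35.0% of all probe sets tested, so the count by itself was close to the background. The 2 that fell stand against 19.1% of all probe sets that did, and the 1 that rose against 15.8%. On the control diet at 9 months and at time 0 the values of all 7 probe sets overlapped, while 15.2% of all probe sets did not overlap.

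GNLY encodes granulysin, a granule peptide that permeabilises membranes of microbes and target cells. Its log2 intensity was 11.59 and 10.78 in the females and 10.61 and 11.14 in the males on the control diet at 9 months, against 11.54 to 12.26 at time 0 with a median of 12.00. Apart from female 18, the arrays on the control diet at 9 months lay below every array of time 0. The difference was -0.84 on the log2 scale (SE 0.19), or 0.561 times the level at time 0, with an adjusted p of 0.0023 in limma's moderated test. It was -0.76 among females and -0.91 among males, and -1.23 in female 8 and -1.12 in male 25, the pigs measured at both times.

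GZMH encodes a granzyme with chymotrypsin-like activity in humans, and in the pig gene table of assembly Sscrofa11.1 it lies next to GZMB. Whether its probe set also picks up transcripts of related granzymes was not tested. On the control diet at 9 months GZMH stood at 11.84 and 11.17 in females and at 11.24 and 11.66 in males, against 11.70 to 12.22 at time 0 with a median of 12.04. Only female 18 of the later arrays reached into the range of time 0. The log2 difference was -0.55 (SE 0.13), or 0.683 times, with a limma adjusted p of 0.0021, and it was -0.50 among females and -0.60 among males. Female 8 was lower by its own earlier value too, with a difference of -0.89, and so was male 25, with -0.36.

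FASLG, the ligand that triggers the Fas death receptor, moved the other way. It stood at 6.02 and 5.79 in females and at 5.66 and 5.82 in males on the control diet at 9 months, against 4.91 to 5.89 at time 0 with a median of 5.19. These values are low, since the median log2 intensity over the probe sets of an array was 6.22 to 6.27. All the later arrays lay above 9 of the 10 arrays at time 0, and male 25 at time 0, with 5.89, was the exception. The log2 difference was 0.54 (SE 0.15), or 1.46 times, with a limma adjusted p of 0.0098. With the spike-in level as a covariate the difference was 0.50 and the adjusted p 0.0589, which ended the call. Female 8 was higher at 9 months by 0.65, whereas male 25 differed by -0.07.

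The receptors and the adaptor did not pass across time. KLRK1 stood at 9.77 and 9.76 in females and at 8.91 and 9.81 in males on the control diet at 9 months, against 9.65 to 10.63 at time 0 with a median of 10.00. The ranges overlapped, male 16 was the only later array below all of time 0, and the difference of -0.50 (SE 0.20) had a limma adjusted p of 0.0527, which was under the threshold in 6 of 24 alternatives. For the antibody receptor FCGR3A the differences were -0.06 and -0.13 at its _a_at and _at probe sets. With array weights the _at probe set had -0.36 and an adjusted p of 0.0330, the only one of 24 alternatives in which it passed. For TYROBP the difference was 0.21 (SE 0.20, adjusted p 0.446). When the mean of all 3 diets at 9 months took the place of the control diet, GNLY (-0.57), GZMH (-0.34) and FASLG (0.74) again passed, and TYROBP was at -0.01.

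**Figure D2:**
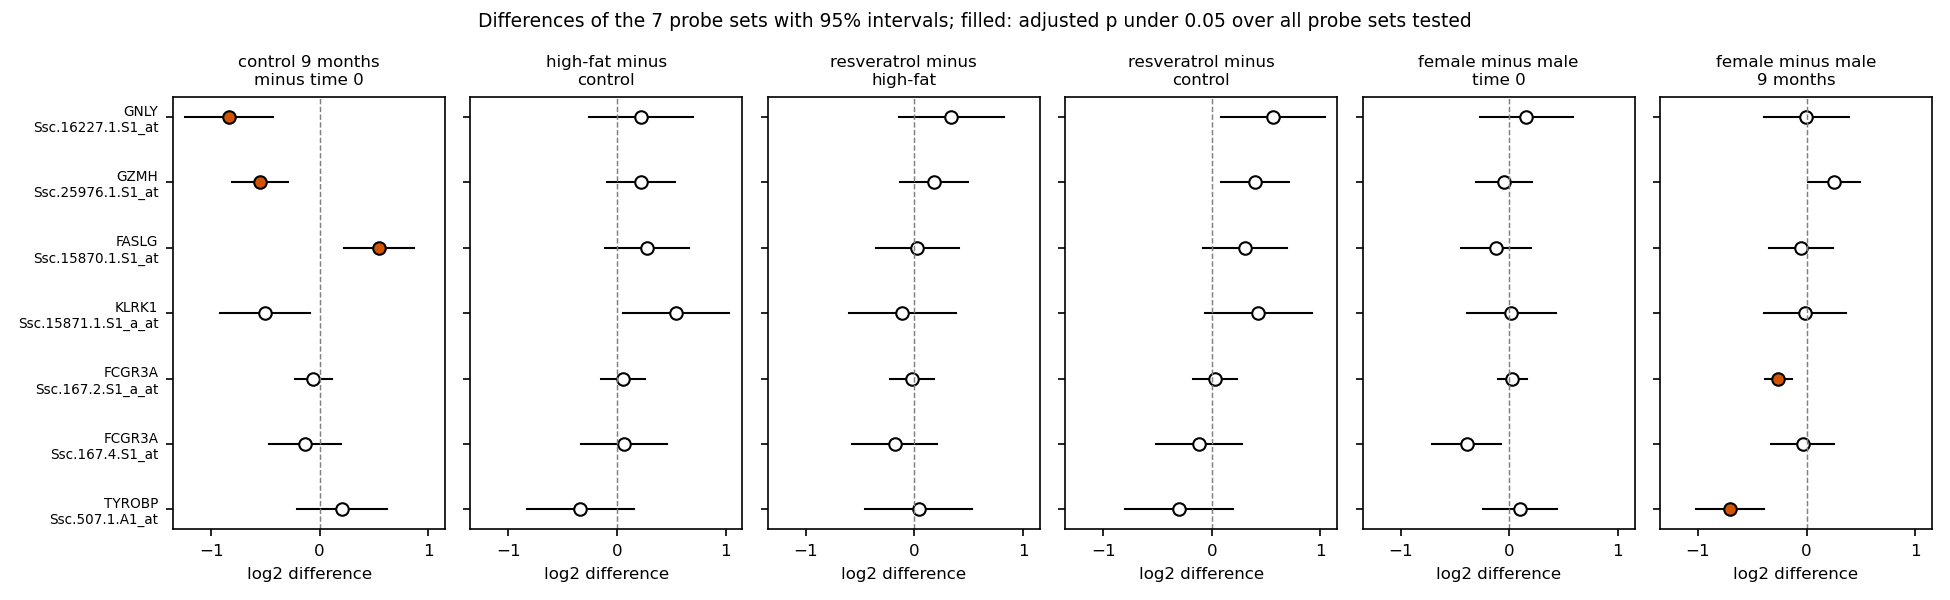
Log2 differences of the 7 probe sets with 95% confidence intervals in 6 comparisons, filled where the adjusted p over all probe sets tested is under 0.05. The filled points are GNLY, GZMH and FASLG between the control diet at 9 months and time 0, and FCGR3A (_a_at) and TYROBP between females and males at 9 months.

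The wider cytotoxicity pathway was read from a list of 90 further genes, of which 41 had a probe set with that single symbol, all of them tested. Between the control diet at 9 months and time 0, 13 of the 41 fell and 7 rose, or 31.7% and 17.1%. Of all probe sets 19.1% fell and 15.8% rose, so the share that rose was close to the background. The 41 were read at the brightest probe set of each gene, whereas the background holds dim probe sets too. Among probe sets above a log2 of 6 in at least 4 arrays, 5466 of 13733 were called in either direction, against 6026 of 17240 in all. The share that fell is thus not set against a like background. The median difference was -0.11 over the 41 against -0.01 over all probe sets. Among the 4 granule genes CTSW, a protease of NK and cytotoxic T cells, fell (-0.43) and none rose. PRF1 had a difference of -0.09 (adjusted p 0.787) where GNLY and GZMH fell. Of the 7 genes of granule release VAMP7 (-0.61) and VAMP8 (-0.46), which take part in vesicle fusion, fell, and LAMP1, a membrane protein of lysosomes and lytic granules, rose (0.46).

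The group of adaptors and kinases held the most genes that fell. Of these 10 adaptors and kinases 5 fell, namely SH2D1A (-1.27), the adaptor of SLAM family receptors, PIK3CG (-0.82), CD247 (-0.72), the zeta chain of the T cell receptor and CD16 complexes, HCST (-0.50) and VAV1 (-0.22). FCER1G rose (0.49). The receptor list had a single measured gene, CD2, a lymphocyte adhesion receptor, and it fell (-0.56). HCST adjoins TYROBP in the Sscrofa11.1 gene table and signals for KLRK1. It averaged 9.80 ± 0.29 on the control diet at 9 months and 10.3 ± 0.17 at time 0 on the log2 scale (SD, n = 4 and 10). HCST fell with a limma adjusted p of 0.0023 where TYROBP did not pass.

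The genes around Fas moved in both directions. TNFSF10, the death ligand TRAIL, rose (0.79) at a low level, with a mean of 6.00 on the control diet at 9 months and 5.20 at time 0. FADD (0.54), the adaptor that joins Fas to caspase-8, rose as well. CASP8 itself fell (-0.51), and so did FAS (-0.33) and IFNG (-0.52), so 2 of the 9 genes measured rose and 3 fell. Among 4 transcription factors ID2 (0.34) and NFIL3 (0.54), both needed for NK cell development in mice, rose. In the group of cytokine receptors and homing genes the chemokine CCL5 fell (-0.75), IL18R1 rose (0.48), and the other 3 of 5 passed no test. ULBP1, a ligand of KLRK1 and the only one measured, was at 0.12.

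Markers of other cells differed between the same arrays. All 9 T cell markers measured were lower on the control diet at 9 months, 5 of them past the threshold, with CD3G at -0.88 and CD8A at -0.85. The mean log2 level of the 9 was 10.0 to 10.2 per array, against 10.3 to 10.7 at time 0. Of 9 monocyte markers CD163 (1.07) and CD86 (0.33) rose, and all 3 red cell markers fell. The part of these shifts in the differences of GNLY, GZMH, FASLG and the 41 further genes was not tested. With the spike-in level as a covariate GNLY and GZMH stayed past the threshold and FASLG did not. Since that level differed between the times, its part cannot be fully told apart from that of time.

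**Figure D3:**
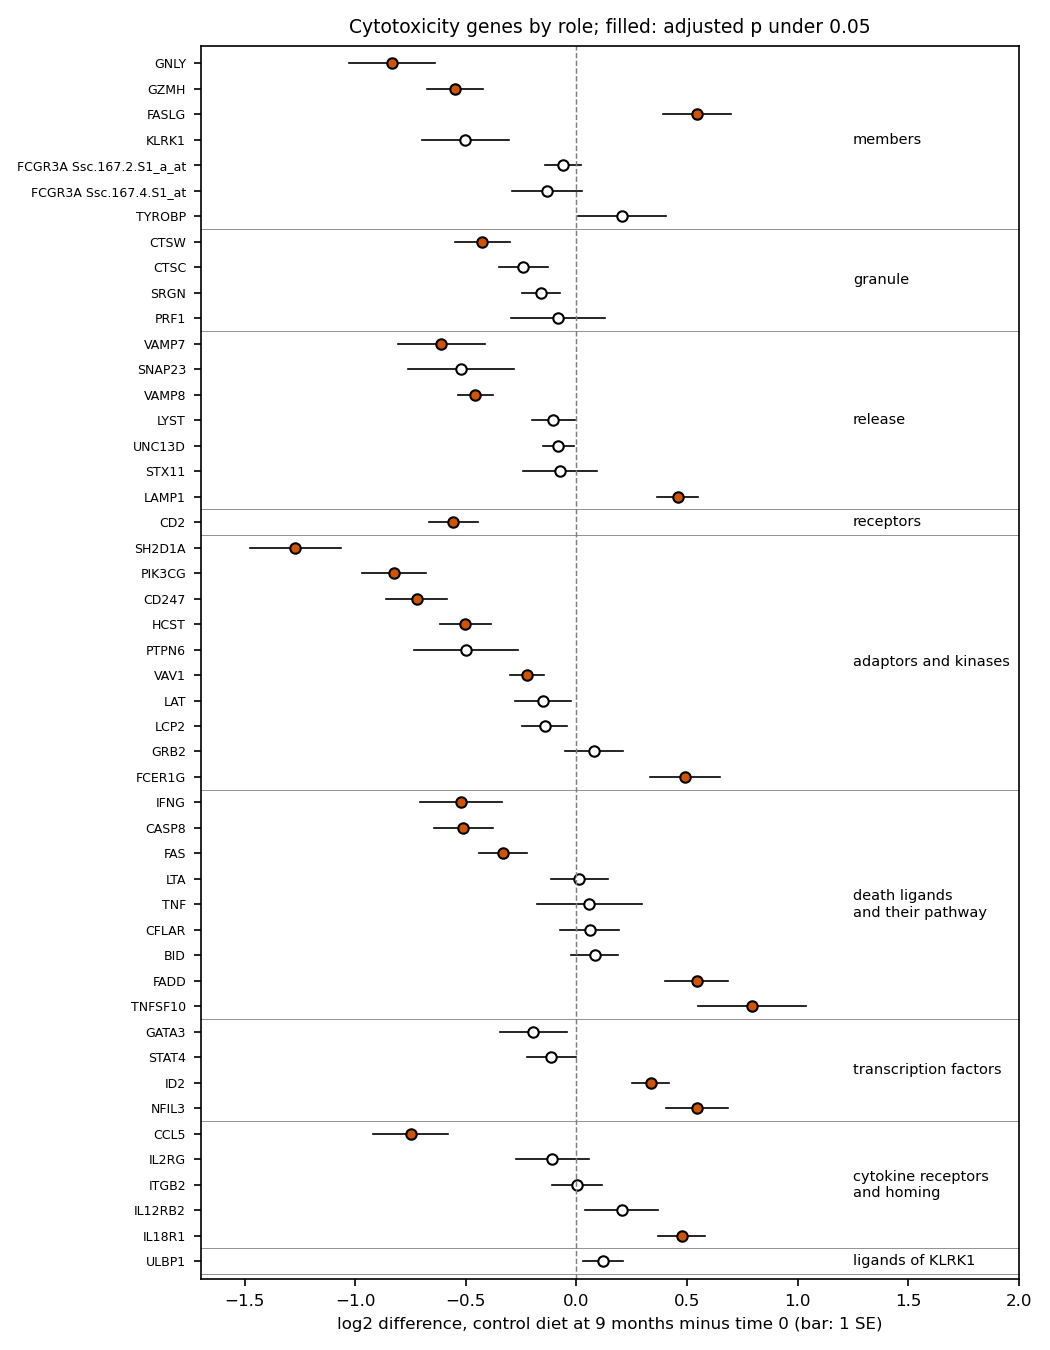
Log2 differences between the control diet at 9 months and time 0 for the 7 probe sets and 41 further cytotoxicity genes grouped by role, with bars of 1 SE and filled points where the adjusted p is under 0.05. Of the 41 genes 13 lie filled to the left of 0 and 7 to the right, from SH2D1A at -1.27 to TNFSF10 at 0.79.

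The high-fat diet was then set against the control diet at 9 months, the study's test of fat consumption. None of the 7 probe sets passed, as 0% of all probe sets did in limma, while 1562 of 17240 had an unadjusted p under 0.05, KLRK1 among them. The groups overlapped for all 7, against 5.05% of all probe sets whose groups did not. The differences were positive for 6 of the 7 and their median was 0.22, against a median of 0.00 over all probe sets. Markers of other cells lay to either side as well. T cell markers were positive in 7 of 9 with a median of 0.21, platelet markers in 4 of 5 (0.37) and red cell markers in 3 of 3 (0.51), while granulocyte markers were negative in 3 of 4 (-0.28), none of them past the threshold. Their part in the values of the 7 probe sets was not tested.

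KLRK1 had the widest difference of the 7. It stood at 9.78 and 10.59 in females and at 10.04 and 10.01 in males on the high-fat diet, against 9.77 and 9.76 in females and 8.91 and 9.81 in males on the control diet. Only the high-fat female 27 lay within the control range, and male 16 on the control diet lay far below the rest. The difference was 0.54 (95% interval 0.05 to 1.03, adjusted p 0.494), and 0.31 without male 16.

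The other members differed by less. For FASLG the high-fat diet gave 6.14, 6.28, 5.91 and 6.08, against 6.02, 5.79, 5.66 and 5.82 on the control diet. The 2 ranges overlapped by a single array on each side, and the difference was 0.28 (SE 0.19). GNLY and GZMH both differed by 0.22, with SEs of 0.23 and 0.15, and both FCGR3A probe sets by 0.06. Over 18 alternative settings the GNLY difference ran from 0.03 with array weights to 0.41 without control female 18, and the GZMH difference from 0.09 without control female 8 to 0.33 without female 18. TYROBP was the negative one, at 10.97, 11.05, 11.73 and 11.34 on the high-fat diet, against 11.79, 10.98, 11.82 and 11.84 on the control diet. Its difference was -0.34 (SE 0.24, adjusted p 0.742), and the 9 monocyte markers were negative as well, with a median of -0.47 and none past the threshold. Their mean log2 level was 8.39 to 8.81 per array on the high-fat diet, against 8.94 to 9.28 on the control diet, and its part in the TYROBP difference was not tested. Within the lower spike-in set, with 1 high-fat and 3 control arrays, the TYROBP difference was 0.20, and within the higher set, with 3 and 1, it was -0.72. These sets are not balanced for sex, and with the set as a block beside sex the difference was -0.18.

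Of the 41 further genes none passed between the high-fat and the control diet, and 22 were positive. Those with the smallest p were FAS (0.45), the integrin chain ITGB2 (-0.37) and the phosphatase PTPN6 (-0.64).

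Adding resveratrol to the high-fat diet gave no call among the 7 probe sets either, as among 0% of all probe sets in limma, with 1143 at an unadjusted p under 0.05 and none of the 7 among them. The 2 high-fat groups overlapped for all 7, against 3.81% of all probe sets that did not. GNLY stood at 11.59, 11.16, 11.86 and 11.76 with resveratrol, against 10.89, 11.72, 11.57 and 10.82 on the high-fat diet alone. The resveratrol arrays lay towards the upper end of an overlapping range, and the difference was 0.34 (SE 0.23, 95% interval -0.14 to 0.82, adjusted p 0.847). GZMH differed by 0.18 (SE 0.15), FCGR3A by -0.02 and -0.18 at its probe sets, KLRK1 by -0.11, TYROBP by 0.04 and FASLG by 0.03. Within the lower and the higher spike-in set TYROBP differed by -0.20 and -0.46, and with the set as a block by -0.12. The monocyte markers were positive in 9 of 9 with a median of 0.15, platelet markers in 5 of 5 (0.63) and T cell markers in 1 of 9 (-0.17), and none passed. Their part in the differences of the 7 probe sets was not tested.

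Against the control diet, the resveratrol group again had 0 of 7 calls, where 0% of all probe sets were called. In limma's test 664 of all probe sets, or 3.85%, had an unadjusted p under 0.05, GNLY and GZMH among them. The values overlapped for all 7, against 1.53% of all probe sets without overlap. These comparisons share the control or the high-fat arrays with those above. GNLY differed by 0.56 (SE 0.23, 95% interval 0.08 to 1.04) and GZMH by 0.40 (SE 0.15, 95% interval 0.09 to 0.71). KLRK1 differed by 0.43 (SE 0.24), FASLG by 0.31 (SE 0.19) and TYROBP by -0.30 (SE 0.24). Each of these had an adjusted p of 0.9998 in limma, and the KLRK1 difference was 0.20 without male 16. The FCGR3A probe sets differed by 0.03 and -0.12. Over 18 alternative settings GNLY ran from 0.29 with array weights to 0.75, and TYROBP from -0.56 with array weights to -0.13. Platelet markers were positive in 4 of 5 with a median of 1.07, and their mean log2 level was 8.58 to 9.78 per array with resveratrol, against 6.26 to 9.20 on the control diet. Monocyte markers were negative in 7 of 9 (-0.35), T cell markers had a median of 0.00, and none of these passed. The part of these markers in the differences of the 7 probe sets was not tested.

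The further genes gave no call in these comparisons. With resveratrol against the high-fat diet alone the smallest p belonged to UNC13D (0.22), a priming factor of granule release, the granule proteoglycan SRGN (-0.22) and SH2D1A (-0.54). Against the control diet it belonged to LAMP1 (-0.25), FAS (0.29) and IL12RB2 (0.38), a chain of the interleukin-12 receptor.

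The diet effects were also compared between the sexes. The difference between females and males in the resveratrol effect, relative to the high-fat diet, was negative for all 7 probe sets, with a median of -0.62 against 0.04 over all probe sets, 55.1% of which were positive. None of the 7 passed, as against 0.0116% of all probe sets, and the lowest adjusted p among them was 0.842. In limma's test 5.85% of all probe sets had an unadjusted p under 0.05, FASLG and both FCGR3A probe sets among them. KLRK1 had -0.77 (SE 0.44), FASLG -0.75 (SE 0.34), FCGR3A -0.73 (SE 0.34) at its _at probe set and -0.32 (SE 0.15) at its _a_at probe set, TYROBP -0.62 (SE 0.36), GNLY -0.54 (SE 0.46) and GZMH -0.34 (SE 0.28). Each rests on 2 arrays per sex and diet, and the probe sets share those arrays. Markers of other cells were displaced in the same comparison. Granulocyte markers were negative in 4 of 4 (median -0.53), platelet markers in 5 of 5 (-0.60) and monocyte markers in 7 of 9 (-0.34), whereas T cell markers were positive in 8 of 9 (0.27) and red cell markers in 3 of 3 (0.34), none past the threshold. Their part in the values of the 7 probe sets was not tested.

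FASLG shows the layout of these values. With resveratrol it stood at 5.84 and 5.89 in females, against 6.14 and 6.28 in females on the high-fat diet alone. In males it stood at 6.64 and 6.15 with resveratrol, against 5.91 and 6.08 on the high-fat diet alone. The resveratrol females lay below their high-fat counterparts and the resveratrol males above theirs, a pattern that also held for KLRK1, for FCGR3A at its _a_at probe set and for TYROBP. For KLRK1 the gap between the females was 0.01, with resveratrol female 22 at 9.77 and high-fat female 27 at 9.78. At the _at probe set of FCGR3A the females were separate but the males overlapped, and for GNLY and GZMH the males were separate but the females overlapped. Each of these separations is of 2 arrays against 2, which arises easily. The share of all probe sets that separate so was not counted, so the layout is not read as a result about the members. In the high-fat effect relative to the control diet, the 7 sex differences ran from -0.24 to 0.47 and none passed, against 0.0058% of all probe sets.

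Of the 41 further genes none passed in either of these comparisons. The smallest p belonged to VAV1 (0.33), NFIL3 (-0.66) and SRGN (-0.26) for the resveratrol effect, and to CFLAR (-0.62), FAS (-0.46) and SRGN (-0.28) for the high-fat effect.

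Females and males were compared at 9 months over the 3 diets together. TYROBP was lower in females, and so was FCGR3A at its _a_at probe set. At the _at probe set FCGR3A differed by -0.04 and did not pass. Of the 7 probe sets 2 passed, against 6.01% of all probe sets, and both were negative, against 2.94% of all probe sets. No member was free of overlap between the sexes, against 1.27% of all probe sets that were.

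TYROBP carries an activation motif and passes on signals of several receptors of NK and myeloid cells. In females it stood at 10.66 and 10.82 with resveratrol, 10.97 and 11.05 on the high-fat diet, and 11.79 and 10.98 on the control diet. In males it stood at 11.95 and 11.81 with resveratrol, 11.73 and 11.34 on the high-fat diet, and 11.82 and 11.84 on the control diet. All females but female 18 on the control diet lay below every male. The difference was -0.70 on the log2 scale (SE 0.15), or 0.614 times, with a limma adjusted p of 0.0113.

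FCGR3A at its _a_at probe set varied little, with a within-group SD of 0.077. In females it stood at 12.27 and 12.23 with resveratrol, 12.49 and 12.39 on the high-fat diet, and 12.50 and 12.30 on the control diet. In males it stood at 12.78 and 12.70 with resveratrol, 12.62 and 12.59 on the high-fat diet, and 12.42 and 12.63 on the control diet. Male 16 on the control diet was the only male within the female range. The difference was -0.26 (SE 0.06), or 0.835 times, with a limma adjusted p of 0.0167, which was 0.0684 in a fit of the 9-month arrays alone. Without female 8 or males 25, 23 or 4 it was 0.0510 to 0.0610.

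The diets were then taken singly. With resveratrol both TYROBP (-1.14, SE 0.26, adjusted p 0.0120) and FCGR3A at its _a_at probe set (-0.49, SE 0.10, adjusted p 0.0087) passed in limma, 2 of 7 against 9.98% of all probe sets. On the high-fat diet the values were -0.52 for TYROBP and -0.17 for that FCGR3A probe set, and on the control diet -0.45 and -0.12. The differences between the high-fat diets with and without resveratrol are those given above, and they did not pass. The sex differences with resveratrol and on the control diet were not tested against each other.

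The remaining members did not separate by sex at 9 months. GZMH had a difference of 0.25 (SE 0.11, adjusted p 0.195), with high-fat females at 11.93 and 12.00 and high-fat males at 11.37 and 11.51. GNLY was at 0.00, KLRK1 at -0.01, FASLG at -0.05 and FCGR3A at its _at probe set at -0.04.

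Monocyte markers moved with sex in these arrays. Of 9 measured, 8 were lower in females and 3 passed, namely AIF1 (-0.61), FCGR1A (-0.96) and CD86 (-0.45), and the mean log2 level of the 9 was 8.39 to 9.04 per array in females, against 8.60 to 9.28 in males. FCER1G, which monocytes also express, was lower by the same test (-0.53). Granulocyte markers were lower in 4 of 4, 2 of them past the threshold, and 2 of 3 red cell markers passed as lower. Platelet markers were lower in 5 of 5 with a median of -0.64, none past the threshold, and 1 of 2 B cell markers passed as higher. T cell markers were higher in 8 of 9, and CD3E passed (0.54). The actin difference between 3' and 5' probe sets was 1.38 and 1.29 in the resveratrol females, against 2.04 and 2.72 in the resveratrol males. The part of these cell markers and of RNA quality in the sex difference of TYROBP and FCGR3A (_a_at) was not tested.

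**Figure D4:**
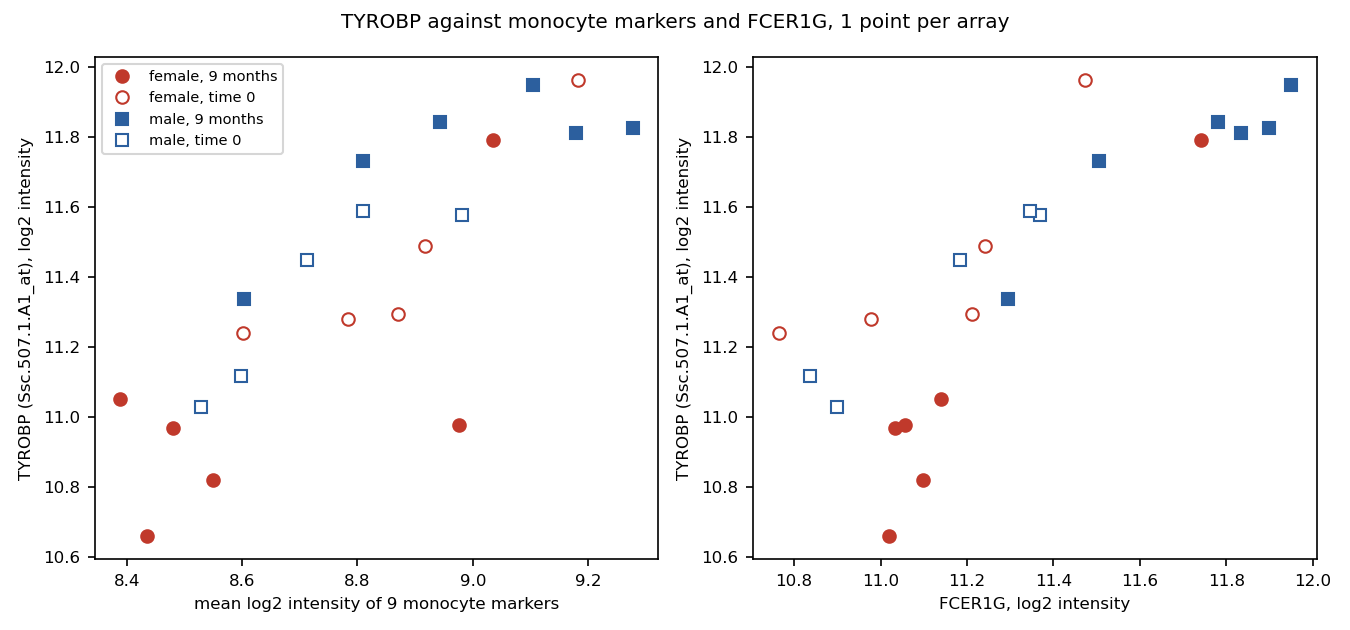
TYROBP log2 intensity against the mean log2 level of 9 monocyte markers (left) and against FCER1G (right), 1 point per array, filled at 9 months and open at time 0. Pearson's r over the 22 arrays is 0.83 with the marker mean and 0.83 with FCER1G, and 5 of the 6 females at 9 months lie at or below 11.05 on the TYROBP axis, as does male 11 at time 0 (11.03).

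Of the 41 further genes 4 were higher in females at 9 months, FADD (0.52), GATA3 (0.53), ID2 (0.33) and VAV1 (0.24), and 5 were lower, SRGN (-0.25), FCER1G (-0.53), LAMP1 (-0.31), VAMP7 (-0.54) and PIK3CG (-0.34). That is 9.76% and 12.2% of the 41, against 3.07% of all probe sets that were higher and 2.94% that were lower. The 41 are again the brightest probe set of each gene, unlike that background. The part of the cell markers in these differences was not tested. The median over the 41 was 0.06, against 0.02 over all probe sets.

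At time 0 no member passed between the sexes, against 1.07% of all probe sets. FCGR3A at its _at probe set stood between 6.22 and 6.81 in the 5 females, against 6.81 to 7.30 in the 5 males, with medians of 6.63 in females and 6.89 in males. It was the only member whose sexes did not overlap, against 3.25% of all probe sets, and the gap between the groups was narrow. The difference was -0.39 (SE 0.15, adjusted p 0.211), while the other FCGR3A probe set differed by 0.03 and TYROBP by 0.10 (SE 0.16). The lowest females at the _at probe set, 6 (6.22) and 10 (6.47), formed a higher spike-in set at time 0 that held no male. Their spike-in levels were 9.12 and 9.15, against up to 7.85 on the other arrays at time 0. Without these females, an alternative chosen after seeing the data, the difference at the _at probe set was -0.23. Among the 41 further genes CASP8 (0.45), PIK3CG (0.37) and STX11 (-0.58), a syntaxin of granule release, had the smallest p, and none passed.

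The change of the sex difference between the times was tested itself. For TYROBP female minus male was -0.70 at 9 months and 0.10 at time 0, and the difference between them was -0.81 (SE 0.22, adjusted p 0.0339 in limma). It was the 1 member of 7 to pass, against 7.34% of all probe sets, or 3.89% for those with a negative sign. Leaving out any 1 of 9 arrays put its adjusted p between 0.0507 and 0.0736, with differences of -0.67 to -0.80. These were females 17, 8 (at 9 months), 27 and 21 and males 11, 12, 25 (at 9 months), 23 and 4. FCGR3A at its _a_at probe set was at -0.29 (SE 0.09, adjusted p 0.0521). Monocyte markers were negative in 8 of 9 in the same test, with 3 past the threshold, and granulocyte markers in 3 of 4, with 1 past it. T cell markers were positive in 6 of 9, with 3 past the threshold. Of the 2 B cell markers 1 passed in each direction, and no platelet or red cell marker passed. Their part in the change of TYROBP was not tested. Of the further genes PIK3CG (-0.71) and CASP8 (-0.59) passed as negative, and PRF1 was at 0.81 (adjusted p 0.0550).

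PRF1 was read beside the granule members. In females at 9 months it stood at 6.90 and 7.12 with resveratrol, 7.02 and 6.79 on the high-fat diet, and 6.80 and 6.17 on the control diet. In males it stood at 7.06 and 6.23 with resveratrol, 5.96 and 6.39 on the high-fat diet, and 6.61 and 6.36 on the control diet. The sexes overlapped, and neither sex comparison passed for PRF1, with 0.36 at 9 months (adjusted p 0.214) and -0.45 at time 0 (adjusted p 0.229).

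The 6 genes did not move as a block from pig to pig. After the means of the 8 groups of condition and sex were subtracted, Pearson's r over 22 arrays was 0.69 between KLRK1 and FASLG, 0.59 between KLRK1 and GNLY, 0.58 between GNLY and TYROBP, and 0.54 between GNLY and GZMH. It was 0.06 between KLRK1 and TYROBP and 0.03 between FASLG and TYROBP. The 2 FCGR3A probe sets did not follow each other, with r = -0.31 after that subtraction and 0.06 over the arrays as they are, so the gene has no single reading here. These correlations describe arrays that share their cell composition and spike-in level, and no test was made on them.

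Genes most like each member were found by the same within-group correlation. CD8A, the co-receptor of cytotoxic T cells, came first for KLRK1 (r = 0.84), followed by UBA3 (0.81) and RBM6 (0.80). For GNLY they were ADGRG1 (0.84), PHKB (0.81) and NUP54 (0.80), and for GZMH TRIM24 (0.89), NDFIP2 (0.86) and the unnamed locus LOC100621559 (0.85). TYROBP had the closest partners, THBD (0.93), CD63 (0.93) and FCER1G (0.92).

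For FCGR3A, at its probe set with the higher mean, ZDHHC20 (0.85), BORCS5 (0.83) and DFFA (0.82) came first, and for FASLG SCIN (0.77), AQN-1 (0.76) and CFAP20 (0.76). These are the highest among all single-symbol genes tested, over 22 arrays. In a group of 2 arrays the centred values mirror each other, so fewer than 22 values are independent. Over the arrays as they are, r was -0.21 between GZMH and TRIM24 and 0.40 between TYROBP and THBD. It was 0.06 between FASLG and AQN-1, 0.32 between FASLG and SCIN, and 0.48 to 0.88 for the other pairs.

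Each member was also set against the mean level of 6 marker lists of other cells by the within-group correlation. For TYROBP r was 0.71 with monocytes, 0.59 with platelets, 0.57 with red cells and 0.02 with granulocytes. For GZMH it was 0.59 with T cells, 0.53 with platelets and -0.54 with granulocytes. GNLY stood at -0.67 with B cells, whose list has 2 measured genes, at 0.57 with platelets and at 0.26 with T cells. KLRK1 was at 0.20 with T cells and had its widest values with monocytes (-0.43) and B cells (-0.42), as FASLG had with B cells (-0.38). FCGR3A stood at 0.53 with platelets at its _a_at probe set and at no more than 0.35 in size with any list at its _at probe set. Platelets were thus among the lists with r above 0.50 for 4 of the 7 probe sets. Control female 8 at 9 months had a mean log2 level of platelet markers of 6.26, against 7.98 or more on every other array. How far these correlations rest on that array was not tested.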

How the data were processed

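The deposited table gives each probe set an RMA intensity per array, not on a log scale, per the submitters' processing notes, which name GCOS, RMA and Affymetrix Expression Console 1.1. No genome build is given in the sources used here, and no coordinates are printed. The log2 of each intensity was taken after a floor of 1, and 124 control probe sets were left out. Of 22 columns of values all were used. Symbols came from the array annotation and were matched by Entrez ID to a pig gene table (Sscrofa11.1), in which all 6 genes were found.

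Comparisons used limma 3.58.1 in R 4.3.3 (statmod 1.5.0 for blocks), two-sided, with Benjamini-Hochberg adjustment over 17240 probe sets at 0.05. Diets and times were compared over 22 arrays with terms for condition and for sex, sexes and their interactions with 8 group means. The number of arrays limits the precision. The fits were tested on simulated data. Alternatives were no filter or a stricter one, repeated quantile normalization, array weights, an offset of 16 before the log2, the spike-in level as covariate, other models, and each array left out.

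All 7 probe sets were named. From the role lists of cytotoxicity genes, at the brightest probe set of a gene, those past the threshold in a comparison and the 3 with the smallest p were named, and for likeness the 3 highest correlations per gene. CD3G, CD8A, CD163, CD86, AIF1, FCGR1A, CD3E and CD14 were named from the marker lists after their values were seen. The members and lists were chosen with earlier results of these data known. Pigs 8 and 25 are paired by their labels; their profiles, centred on the groups, correlated at -0.06 and 0.20 across probe sets, against 0.35 and 0.20 for the closest other pig of that sex.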

Additional observations from a re-analysis of the deposited data

Results flagged for a closer look

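Of 42 groups of 4 to 10 arrays examined over the 7 probe sets, 4 had an end value far from the rest, and chance marks about 1 in 20 groups. KLRK1 was 10.5 on the log2 scale in female 6 at time 0, above the other 4 females at that time, and 8.91 in male 16 on the control diet at 9 months, below the other 3 arrays of that diet. GNLY was 11.6 in female 10 at time 0, below the other 4 females. Females 6 and 10 were the arrays of the higher spike-in set at time 0. TYROBP was 11.0 in female 8 on the control diet at 9 months, below the other 3 arrays of that diet.

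The sex difference of TYROBP was not the same at the 2 times: female minus male at 9 months less the same at time 0 was -0.81 on the log2 scale in the test of that difference (limma adjusted p 0.0339).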

How the results depend on the processing

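Of 1075 alternative values for 52 differences of single probe sets, 993 kept their sign and their side of the threshold. Of the rest 15 lost a call, 13 gained one and 54 changed sign, none of these 54 for a called difference and none past the threshold. These counts leave out 11 differences. They are the sex differences in the high-fat effect and those of FASLG, KLRK1, GNLY and GZMH at time 0. Of their 199 alternatives 30 changed sign and 0 gained a call. For GNLY and GZMH all 24 alternatives to the time comparison stayed past it (adjusted p up to 0.0286 and 0.0199), and for FASLG 23 of 24. TYROBP between the sexes at 9 months stayed past it in 21 of 21, with an adjusted p up to 0.0496. The number of members called between the sexes at 9 months was 1 with the 9-month arrays alone and 1 to 2 with each array left out; without female 8 or males 25, 23 or 4 FCGR3A (_a_at) lost its call, at adjusted p of 0.0510 to 0.0610. For the change of the sex difference it was 2 with the stricter filter, repeated normalization, array weights or the offset, and 0 to 2 with each array left out. KLRK1 over time passed in 6 alternatives, such as condition alone (adjusted p 0.0485), and FCGR3A (_at) with array weights (-0.36, adjusted p 0.0330). The replicate block took the pig number as a random block for the paired animals. Its consensus correlation was -0.18 in the model of diets and times and -0.02 with 8 group means. With it the count of members called over time stayed at 3 and no other count of members called changed. Over all probe sets, high-fat minus control gave 68 calls with array weights and 18 with 8 group means, against 0 as reported, and 0 to 18 with each array left out. Both resveratrol comparisons gave 1 with 8 group means. Female minus male at time 0 gave 25 to 56 with the spike-in level or set in the fit, the time 0 arrays alone or without females 6 and 10 (2 of these chosen after seeing the data), and 38 to 395 with each array left out, against 184 as reported. With each array left out it was 319 to 1441 at 9 months, 692 to 1714 for the change of the sex difference, and up to 154 and 54 for the sex difference in the high-fat and resveratrol effects.

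Among the 52 differences, signs changed only where the reported difference was at most 0.21 in size, with TYROBP over time the largest. With array weights, FCGR3A (_a_at) was -0.018 for high-fat minus control and -0.11 for resveratrol minus control, its other probe set 0.0040 for the second of these, FASLG -0.10 and TYROBP -0.10 for resveratrol minus high-fat, and KLRK1 0.012 for the change of the sex difference. With the spike-in level as covariate TYROBP was -0.060 for resveratrol minus high-fat, GNLY 0.017 between the sexes at 9 months and KLRK1 0.012 for the change of the sex difference. With the spike-in set as a block, an alternative chosen after seeing the data, TYROBP was -0.12 for resveratrol minus high-fat. With repeated normalization GNLY was 0.0053 between the sexes at 9 months, and with all 3 diets TYROBP was -0.0056 over time. The cause was not tested.

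With each array left out, high-fat minus control ranged from -0.091 to 0.21 for FCGR3A (_at). Resveratrol minus high-fat ranged from -0.13 to 0.21 for TYROBP, -0.26 to 0.059 for KLRK1, -0.14 to 0.12 for FASLG and -0.10 to 0.050 for FCGR3A (_a_at). Resveratrol minus control ranged from -0.046 to 0.10 for that probe set and -0.24 to 0.013 for its _at probe set. Female minus male at time 0 ranged from -0.025 to 0.16 for TYROBP, and at 9 months from -0.14 to 0.071 for FCGR3A (_at), -0.14 to 0.14 for GNLY, -0.17 to 0.14 for KLRK1 and -0.13 to 0.031 for FASLG. The change of the sex difference ranged from -0.19 to 0.12 for KLRK1 and -0.072 to 0.18 for FASLG.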
